A study of Mus musculus with 4 samples.

Results

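The delta protocadherins are the non-clustered protocadherins whose genes lie scattered over the genome, outside the clustered protocadherin arrays. The group described here holds 9 mouse genes, namely Pcdh1, Pcdh7 and Pcdh9 of the delta-1 branch, Pcdh8, Pcdh10, Pcdh17, Pcdh18 and Pcdh19 of the delta-2 branch, and Pcdh20, which has no settled place in either branch. Pcdh11x, a further delta-1 gene, is not among the 9 and is counted below with related cadherins. They were taken by name, as 9 of the 21938 protein-coding genes of the annotation, and every peak of H3K27me3 inside one of the genes or within 10 kb of it was assigned to that gene. By this rule 17 of 10223 peaks from 500 cells and 22 of 15282 peaks from 15000 cells belonged to the group. No level of any gene was used to choose it. It was chosen with earlier results of these data known, as were the gene lists compared with it below.

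Delta protocadherins are single-pass membrane proteins with a row of cadherin repeats outside the cell, through which they bind their own kind on a neighbouring cell, mostly weakly. They are known above all from the developing nervous system, where they take part in axon outgrowth, cell sorting and synapse formation, and also from somites, epithelia and vessels. The cytoplasmic tail of the delta-1 members carries a motif that binds protein phosphatase 1, whereas several delta-2 members recruit the WAVE actin regulatory complex. H3K27me3, the trimethylation of lysine 27 on histone H3, is placed by Polycomb repressive complex 2, whose catalytic subunit is Ezh2. The mark is typical of the CpG-rich starts of developmental genes that are silent in the cell type at hand. Peak lists alone do not show whether a gene was silent, and no expression value entered this description.

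The mark was profiled by CUT&RUN, in which an antibody directs a nuclease to its target and the released DNA is sequenced, in erythro-myeloid progenitors (EMPs) sorted from E10.5 yolk sac of C57BL/6 embryos. EMPs arise from hemogenic endothelium and were isolated as KIT+CD41+CD16/32+ cells. The genotype label reads Ezh2fl/fl; Tie2-Cre+/+ and adds that the embryos were wild type, and the cells were taken as wild type with intact Ezh2. The same label stands on all 4 libraries, which were 1 H3K27me3 and 1 IgG library from 500 EMPs and the same pair from 15000 EMPs. Tie2-Cre acts in endothelium and its blood cell progeny where it is present, and the sources used here do not say how many embryos gave each library. The amounts also differed in PCR cycles (17 and 16), in read length (76 and 59 bp, paired-end), in sequencing instrument and in the p-value set for peak calling (0.01 and 0.05). The study's own notes also give a lower sequencing depth and a much lower alignment rate for the library from 500 EMPs. None of these can be told apart from cell number. With 1 library per group there was no replicate spread and no test, and all differences below are between these 2 peak lists. The lists give positions only, with no read count behind a peak, so each value says where a peak was called, not how high it was.

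None of the 8 genes taken to mark EMP identity (Kit, Itga2b, Fcgr3, Runx1, Gata1, Spi1, Ptprc and Myb) had a peak within 3 kb of its start in either list. In the gene or within 10 kb of it, Fcgr3 had 3 peaks from 500 EMPs and 2 from 15000 EMPs, and the other 7 genes had none. For 0 of 8 genes the 95% Wilson interval of the share reaches 32.4%, which includes the shares of 9.92% and 17% over all protein-coding genes in the lists from 500 and 15000 EMPs, so that the markers cannot be set apart from other genes. Like every interval given here, it covers counting error only.

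CpG-rich DNA is the usual setting of the mark, and 4 promoters are shown for it. Each promoter below runs from 250 bases before to 50 bases after the RefSeq start on GRCm38.p6, in the direction of the gene, and CpG dinucleotides stand in capitals. The motif searched was CG, which reads the same on both strands, and 94.6% of the 32851 promoters of this length in the RefSeq table hold at least 1, with a median of 7. The promoters of Pcdh8 and Pcdh10 are printed because they lay wholly inside peaks from 15000 EMPs, that of Pcdh17 because it holds the most CpG of the 8 members' promoters read here and had 0 bases in peaks of either list, and that of Pcdh7 because this gene had no peak at all. The promoter of Pcdh1 was not read. Within 500 bp of the start Pcdh1 had the highest density of the members, 8.79 CpG per 100 bp.
Pcdh8 promoter (chr14:79771263-79771562, minus strand): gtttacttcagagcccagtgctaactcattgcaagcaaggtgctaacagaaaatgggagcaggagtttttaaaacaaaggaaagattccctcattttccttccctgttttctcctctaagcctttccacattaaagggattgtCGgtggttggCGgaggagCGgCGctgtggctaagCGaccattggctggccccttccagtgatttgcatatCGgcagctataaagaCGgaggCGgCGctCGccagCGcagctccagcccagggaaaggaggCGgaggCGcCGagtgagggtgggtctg
Pcdh10 promoter (chr3:45378148-45378447, plus strand): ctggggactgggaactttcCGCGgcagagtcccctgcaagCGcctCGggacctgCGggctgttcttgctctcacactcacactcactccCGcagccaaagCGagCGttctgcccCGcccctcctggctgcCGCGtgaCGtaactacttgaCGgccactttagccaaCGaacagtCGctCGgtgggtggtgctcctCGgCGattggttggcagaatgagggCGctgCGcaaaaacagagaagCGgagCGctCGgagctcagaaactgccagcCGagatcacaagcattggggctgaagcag
Pcdh17 promoter (chr14:84443313-84443612, plus strand): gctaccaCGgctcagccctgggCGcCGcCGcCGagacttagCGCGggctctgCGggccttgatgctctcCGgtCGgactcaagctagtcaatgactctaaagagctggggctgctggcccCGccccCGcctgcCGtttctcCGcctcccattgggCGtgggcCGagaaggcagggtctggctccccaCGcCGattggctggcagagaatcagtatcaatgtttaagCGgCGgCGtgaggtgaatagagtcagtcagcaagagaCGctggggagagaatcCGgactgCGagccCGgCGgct
Pcdh7 promoter (chr5:57717831-57718130, plus strand): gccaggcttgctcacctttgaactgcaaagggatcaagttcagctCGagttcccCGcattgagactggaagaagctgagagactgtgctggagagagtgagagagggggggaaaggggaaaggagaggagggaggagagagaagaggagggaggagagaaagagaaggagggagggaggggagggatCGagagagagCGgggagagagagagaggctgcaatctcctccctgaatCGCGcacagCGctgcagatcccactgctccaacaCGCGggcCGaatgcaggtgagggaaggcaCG
The Pcdh8 promoter holds 14 CpG, a number that 36.3% of all promoters in the table reach, and 268 of its 300 bases were inside a peak from 500 EMPs. The Pcdh10 promoter holds 24 CpG, reached by 19.98% of promoters, and had 0 bases in peaks from 500 EMPs but all 300 in a peak from 15000 EMPs. The promoter of Pcdh17 holds 26, reached by 16.9%, and that of Pcdh7 holds 11, reached by 41.4%. The promoters of Pcdh18 and Pcdh19, with 23 and 18 CpG, also had 0 bases in peaks of either list. The RefSeq start of Pcdh7 is 114 bp from the outermost GENCODE start used for all distances below.

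H3K27me3 peaks were found close to the starts of most delta protocadherin genes. Within 3 kb of the start, Pcdh1, Pcdh8, Pcdh17 and Pcdh20 had a peak from 500 EMPs, which is 4 of 9 genes (44.4%, Wilson 95% interval 18.9 to 73.3%). Among all 21938 protein-coding genes the share was 9.92%. The count of members fell to 2, Pcdh1 and Pcdh8, when only peaks of at least 500 bp were kept. The share of all protein-coding genes was not computed with that filter, so 9.92% is not its background. From 15000 EMPs, 8 of 9 genes had such a peak (88.9%, interval 56.5 to 98.0%), with Pcdh7 as the exception, against 17% of all protein-coding genes. The genes with a peak from 500 EMPs were all among those with a peak from 15000 EMPs. Only peaks from 15000 EMPs were found within 3 kb of Pcdh9, Pcdh10, Pcdh18 and Pcdh19.

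Counted over the whole gene and 10 kb on either side, 6 members had a peak from 500 EMPs, since Pcdh10 and Pcdh19 then joined the 4 named above. The same count was 8 for 15000 EMPs. A peak in this wider window was called for 15.1% and 25% of all protein-coding genes, respectively. The windows of the 9 genes add up to 1.78 Mb, and the genes were long, with a median of 57.2 kb against 17.4 kb for all protein-coding genes and a range from 4.54 kb for Pcdh8 to 877 kb for Pcdh9. A longer gene holds more room for a peak, and the part of length in these counts was not tested. All 17 peaks from 500 EMPs and 20 of the 22 from 15000 EMPs lay within 10 kb of a start. This was not counted for all peaks, and at short genes such as Pcdh8 and Pcdh20 most of the window lies within that distance. No other protein-coding gene reached into any of the 9 windows.

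**Figure D1:**
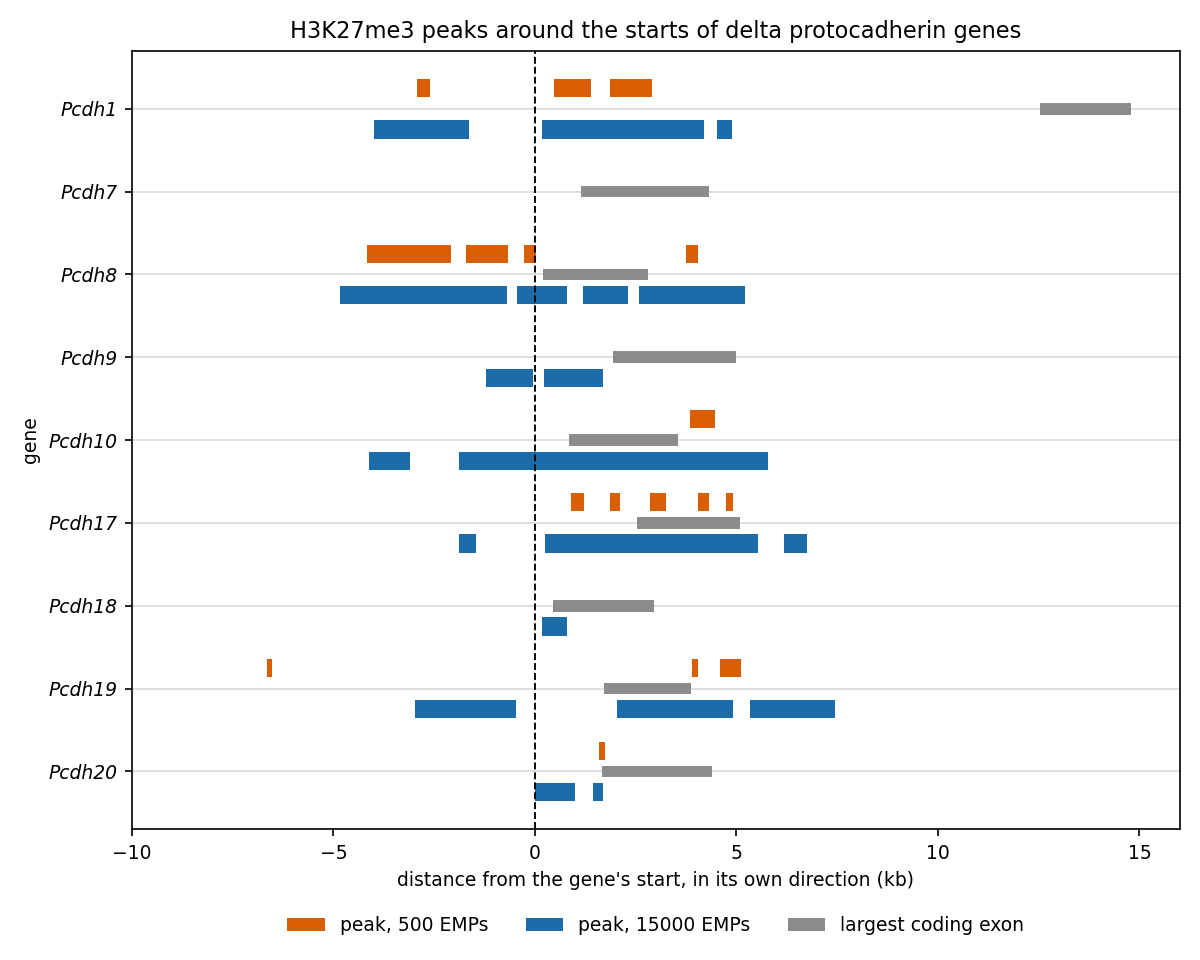
Peaks of both lists (500 EMPs above each line, 15000 EMPs below it) at the 9 genes, drawn by distance in kb from the gene's outermost start in the direction of the gene, with the largest coding exon in grey. All peaks drawn lie within 10 kb of the dashed start, Pcdh7 has none, and 2 peaks of Pcdh1 at its far end lie outside the plot.

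The length of DNA covered gives a finer order of the genes than presence alone. Within 3 kb of the start, a window of 6001 bp, peaks from 15000 EMPs covered 5110 bp at Pcdh8, 4884 bp at Pcdh10 and 4180 bp at Pcdh1. They covered 3456 bp at Pcdh19, 3168 bp at Pcdh17 and 2630 bp at Pcdh9. The lowest values were 1271 bp at Pcdh20, 624 bp at Pcdh18 and 0 bp at Pcdh7. The upper 5 of these genes lay above 2743 bp, the median of the 3728 protein-coding genes that had a peak within 3 kb. With 1 library, neighbours in this order cannot be said to differ.

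In the 500-EMP list the same window held 2262 bp at Pcdh8, 2261 bp at Pcdh1, 716 bp at Pcdh17 and 137 bp at Pcdh20. The other 5 genes had 0 bp. Pcdh8 and Pcdh1 were the members above the median of 789 bp over the 2177 genes with a peak there. Over all 9 genes the covered length within 3 kb was 5376 bp from 500 EMPs and 25323 bp from 15000 EMPs, and over the genes with 10 kb on either side it was 9008 bp and 45173 bp. No gene had a shorter covered length from 15000 EMPs than from 500 EMPs.

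**Figure D2:**
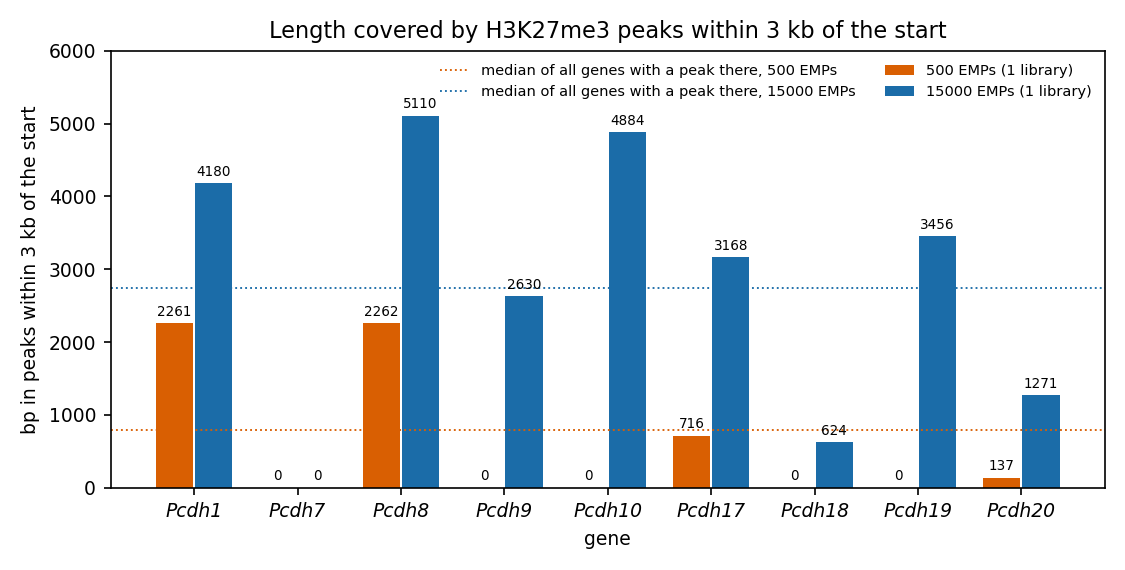
Base pairs inside peaks within 3 kb of the start (vertical axis, bp) for each gene in each list, 1 library per bar, with dotted lines at the median over all protein-coding genes that had a peak there. Bars for 15000 EMPs range from 0 at Pcdh7 to 5110 at Pcdh8, and 5 genes have no bar for 500 EMPs.

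Member peaks differed in width between the lists. Those from 500 EMPs were 137 to 2103 bp wide with a median of 313 bp, beside 363 bp for all peaks of that list, and those from 15000 EMPs were 258 to 7679 bp wide with a median of 1294 bp, beside 770 bp. Of the 17 peaks from 500 EMPs, 16 overlapped a peak from 15000 EMPs by at least 1 bp (94.1%, Wilson 95% interval 73.0 to 99.0%), close to the 91.2% found for all peaks of that list. The share was 5.88% when 50% of both peaks had to overlap, a value that was not computed for all peaks. In the other direction 9 of 22 peaks had a counterpart (40.9%, 23.3 to 61.3%), where all peaks of the 15000-EMP list gave 32.2%. The lists shared 8587 bp at these genes, nearly all of what the 500-EMP list covered. There were 4 peaks from 15000 EMPs that overlapped more than 1 peak from 500 EMPs, as at Pcdh17, where a single one held 5 in full. Peaks that share a counterpart are not independent, so the interval around 94.1% is likely too narrow. With peaks joined within 3 kb in both lists, the share of peaks from 500 EMPs with a counterpart was 88.9%.

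Peaks near a start did not always cover it. The start lay inside a peak from 500 EMPs only at Pcdh8, that is at 1 of 9 genes, while 1.4% of all protein-coding genes had a covered start in that list. From 15000 EMPs the start was covered at Pcdh8, Pcdh10 and Pcdh20, 3 of 9 genes, beside 8.63% of all genes. At Pcdh1, Pcdh9, Pcdh17 and Pcdh19 peaks from 15000 EMPs stood on both sides within 3 kb with the start in the gap, a pattern called for 3.32% of all protein-coding genes. This is said of the outermost start, and at Pcdh1 the first exon of the principal transcript, 204 bp long and further inside the gene, was covered to 100% in both lists. Of the 7 members with peaks on both sides, 4 had an uncovered start (57.1%, Wilson 95% interval 25.05 to 84.2%), and the interval includes the 27.8% of all genes with peaks on both sides. In the 500-EMP list only Pcdh1 had this pattern, which was called for 3.63% of all genes, and there 72.2% of the genes with peaks on both sides had an uncovered start.

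The gaps differed in size. At Pcdh9 the gap was 276 bp, from 221 bp inside the gene to 54 bp before it. At Pcdh17 it spanned 1706 bp, at Pcdh1 1821 bp and at Pcdh19 2517 bp. At 3 of the 4 genes the CpG density of the gap lay between those of the peaks beside it. It was 4.34 per 100 bp at Pcdh1, between peaks of 0.897 and 4.50, 3.99 at Pcdh9, between 2.17 and 4.69, and 4.04 at Pcdh17, between 0.471 and 4.93. At Pcdh19 alone the gap was denser than both peaks, with 7.31 CpG per 100 bp against 2.85 and 2.92. The reason for the gaps was not tested, and a broad peak caller joins or splits neighbouring stretches by rules that the lists do not record.

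All 9 genes have further annotated starts, 32 in total, of which 3 lay in peaks from 500 EMPs and 12 in peaks from 15000 EMPs. When any GENCODE transcript start counted, which can only add genes, 4 of 9 genes had a covered start from 500 EMPs, against 2.42% of all protein-coding genes and 2.6% of those with at least 2 distinct starts. From 15000 EMPs it was 7 of 9, against 11.4% and 11.8%. All 5 distinct starts of Pcdh10 were inside peaks from 15000 EMPs, as were both of Pcdh8 and of Pcdh20. At Pcdh1 2 of 6 starts were covered, at Pcdh19 2 of 5, at Pcdh17 1 of 2 and at Pcdh9 1 of 7. Pcdh18 and Pcdh7 had no covered start among 5 and 7.

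The 3 delta-1 members, whose tails bind protein phosphatase 1, gave 3 different pictures. Pcdh1, an adhesion protein of epithelia and endothelium, lies at chr18:38185914-38212053 on the minus strand. From 500 EMPs it had 3 peaks that together covered 2261 bp, namely 1 of 1040 bp and 1 of 908 bp inside the gene, from 474 to 2895 bp past the start, and 1 of 313 bp before it. From 15000 EMPs it had 5 peaks covering 9029 bp, of which 2 overlapped the earlier 3 and widened them to 4021 and 2341 bp. A pair of the remaining peaks lay at the far end of Pcdh1, over 20 kb from the start, and these were the peaks that put 2296 bp beyond 10 kb. The peak of 1340 bp at that end (chr18:38186354-38187693) fell wholly on untranslated exon sequence. A lincRNA gene on the other strand, 2010320O07Rik, starts 2281 bp inside Pcdh1 within the peaks of both lists, so those peaks cannot be given to 1 of these genes alone.

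Pcdh9, best known from neurons, lies at chr14:93013410-93890679 on the minus strand and is the longest gene of the group. No peak from 500 EMPs was found within 10 kb of it, and the nearest lay 5401497 bp from its start. From 15000 EMPs it had 2 peaks, of 1478 bp (chr14:93888980-93890457) and 1152 bp (chr14:93890734-93891885), which together covered 2630 bp on the 2 sides of the start. The rest of the gene carried no peak. Pcdh7, which binds protein phosphatase 1 and guides retinal axons, lies at chr5:57717967-58133230 on the plus strand and had no peak in either list. The nearest peak to its start lay 4502709 bp away for 500 EMPs and 4248499 bp away for 15000 EMPs. Within 500 bp of its start the density was 7.69 CpG per 100 bp, above 7 of the other 8 members, and in the 300-base promoter printed above it was 3.67.

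In the delta-2 branch all 5 genes had a peak from 15000 EMPs within 3 kb, and Pcdh8 and Pcdh17 also had one from 500 EMPs. Pcdh8, the gene of paraxial protocadherin, which acts in somite formation and at synapses, lies at chr14:79766775-79771312 on the minus strand. It had 4 peaks in each list, covering 3743 bp and 9162 bp. The start was inside a 277-bp peak from 500 EMPs and a 1248-bp peak from 15000 EMPs. Most of the remaining covered DNA lay before the gene, where 2 peaks of 1056 and 2103 bp from 500 EMPs corresponded to 1 peak of 4144 bp. The non-coding gene Gm9748 runs on the other strand from 1404 bp inside Pcdh8, and the authors' table names it for several of these peaks.

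Pcdh10, which recruits the WAVE complex and guides axons of the striatum, lies at chr3:45378398-45435623 on the plus strand. Its peak from 500 EMPs was 639 bp wide and began 3837 bp inside the gene (chr3:45382235-45382873). From 15000 EMPs a peak of 7679 bp ran across the start from 1883 bp before it to 5795 bp inside (chr3:45376515-45384193), the widest peak of the whole group. The non-coding gene 2610316D01Rik starts 138 bp before Pcdh10 on the other strand, and its start lay in the same peak.

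Pcdh17, which acts in presynaptic assembly and axon extension, lies at chr14:84443563-84539002 on the plus strand. Its 5 peaks from 500 EMPs were 174 to 408 bp wide, covered 1430 bp and all lay between 886 and 4917 bp inside the gene. All of them fell into a single peak of 5289 bp from 15000 EMPs (chr14:84443821-84449109), which began 258 bp inside the gene. Peaks of 425 bp before the start and of 568 bp in an intron raised the covered length of Pcdh17 to 6282 bp. The 95.44 kb gene thus had its peaks inside the gene between 258 and 6748 bp from the start, with a stretch between them uncovered, and none was called beyond.

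Pcdh18, known to bind the adaptor Dab1, lies at chr3:49743296-49757325 on the minus strand. It had no peak from 500 EMPs, with the nearest at 1124888 bp from its start. From 15000 EMPs it had 1 peak of 624 bp (chr3:49756533-49757156), beginning 169 bp inside the gene, the smallest covered length in that list among members with any peak.

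Pcdh19, an X-linked gene mutated in an inherited epilepsy of females, lies at chrX:133582860-133688987 on the minus strand. Its 3 peaks from 500 EMPs covered 798 bp, and none lay within 3 kb of the start. From 15000 EMPs it had 3 peaks of 2099 to 2879 bp that covered 7476 bp on both sides of the start. Pcdh20, a little studied member, lies at chr14:88464743-88471396 on the minus strand. It had 1 peak of 137 bp from 500 EMPs, and from 15000 EMPs it had peaks of 258 bp and 1013 bp, the second across the start.

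The smallest member peaks are shown as DNA, because 137 bp is the smallest width in the 500-EMP list and 3 of the 17 member peaks had it, 2 at Pcdh19 and 1 at Pcdh20. The peak of Pcdh20 was the only one that put this gene among those with a peak from 500 EMPs, and the outlying peak of Pcdh19 was the only member peak of that list without a counterpart. Both are printed in the direction of the gene from GRCm38, with CpG in capitals.
Pcdh20 peak (chr14:88469663-88469799, minus strand): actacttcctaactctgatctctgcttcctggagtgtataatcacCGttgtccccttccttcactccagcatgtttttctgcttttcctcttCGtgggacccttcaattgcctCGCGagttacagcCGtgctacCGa
Pcdh19 peak (chrX:133695508-133695644, minus strand): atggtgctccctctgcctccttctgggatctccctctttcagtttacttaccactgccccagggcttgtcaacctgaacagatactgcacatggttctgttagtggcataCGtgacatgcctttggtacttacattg
The Pcdh20 peak holds 6 CpG, lies 1597 bp inside the gene and shares 91 bp with a peak from 15000 EMPs. The Pcdh19 peak holds 1 CpG and lies 6521 bp before the start.

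Delta protocadherin genes share an unusual layout, in which a single large exon encodes most or all of the extracellular cadherin repeats. In these 9 genes the largest coding exon was 2147 to 3174 bp long and held 59.97 to 95.4% of the coding sequence. Peaks from 15000 EMPs covered 39.7% of the 23717 bp of these exons and 19.04% of the other 7494 bp of coding sequence. Peaks from 500 EMPs covered 3.90% and 2.67%. No such share was computed over all protein-coding genes. The part of distance from the start in this contrast was not tested. The exon was wholly inside a peak at Pcdh10 and Pcdh17 in the 15000-EMP list, and 85.1% of it was covered at Pcdh19 and 75.9% at Pcdh8. It was covered to 13.3% at Pcdh18 and 0.808% at Pcdh20, and to 0% at Pcdh1, Pcdh7 and Pcdh9. In the 500-EMP list the exon was touched at Pcdh17 (33.5%) and Pcdh20 (2.50%) only.

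The exon stands at different places in the genes. At Pcdh1 it begins 12525 bp from the outermost start, past every peak near that start, and at Pcdh9 it begins at 1947 bp, beyond the end of the inner peak at 1699 bp. At Pcdh8 and Pcdh18 it begins 191 and 461 bp from the start. In all, 24.0% of the covered length from 15000 EMPs was coding sequence, 17.98% untranslated exon, 25.7% intron and 32.3% DNA outside the gene. The respective shares from 500 EMPs were 12.5%, 17.1%, 27.5% and 42.9%.

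**Figure D3:**
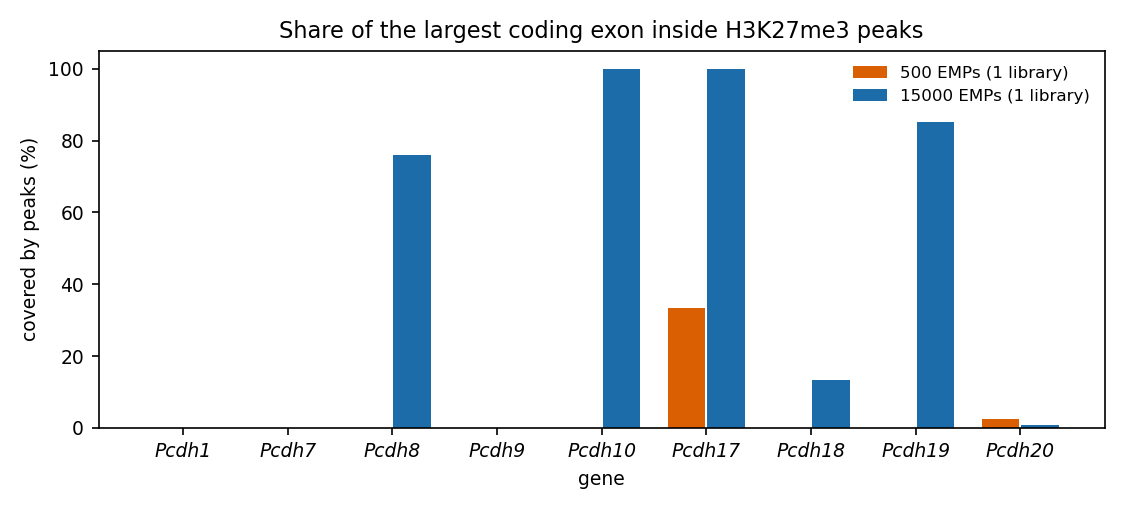
Percent of the largest coding exon of each gene that lay inside peaks (vertical axis), 1 library per bar. The bars for 15000 EMPs reach 100% at Pcdh10 and Pcdh17, 85.1% at Pcdh19 and 75.9% at Pcdh8, while Pcdh1, Pcdh7 and Pcdh9 have none.

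The composition of the starts was then set beside the peaks. A start was called CpG-rich where the 1 kb around it had at least 50% GC and an observed to expected CpG ratio of at least 0.6. By this measure 7 of 9 members had a CpG-rich start, all but Pcdh19 and Pcdh20, against 44.4% of all protein-coding genes. Among the protein-coding genes with such a start, 13.7% had a peak within 3 kb from 500 EMPs and 21.8% from 15000 EMPs. Of the 7 members with such a start, 3 and 6 had one. Member peaks had a median of 3.34 CpG per 100 bp from 500 EMPs and 2.88 from 15000 EMPs, compared with 1.49 and 1.62 for all peaks of these lists and 0.716 over the windows of the members as a whole. Single peaks ranged from 0.270 CpG per 100 bp in a short intronic peak of Pcdh1 to 9.20 in a peak over the coding exon of Pcdh8.

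Among the members themselves, CpG density and covered length did not run in the same order. Pcdh20 had the fewest CpG at its start (2.30 per 100 bp) and a start inside a peak from 15000 EMPs. Pcdh10 and Pcdh18 had the same density of 4.50 per 100 bp, yet 4884 and 624 bp were covered within 3 kb. Pcdh1 and Pcdh7 had the highest densities, 8.79 and 7.69, and stood at 4180 and 0 bp. These are 9 genes in 1 library, and the values are given as a description.

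**Figure D4:**
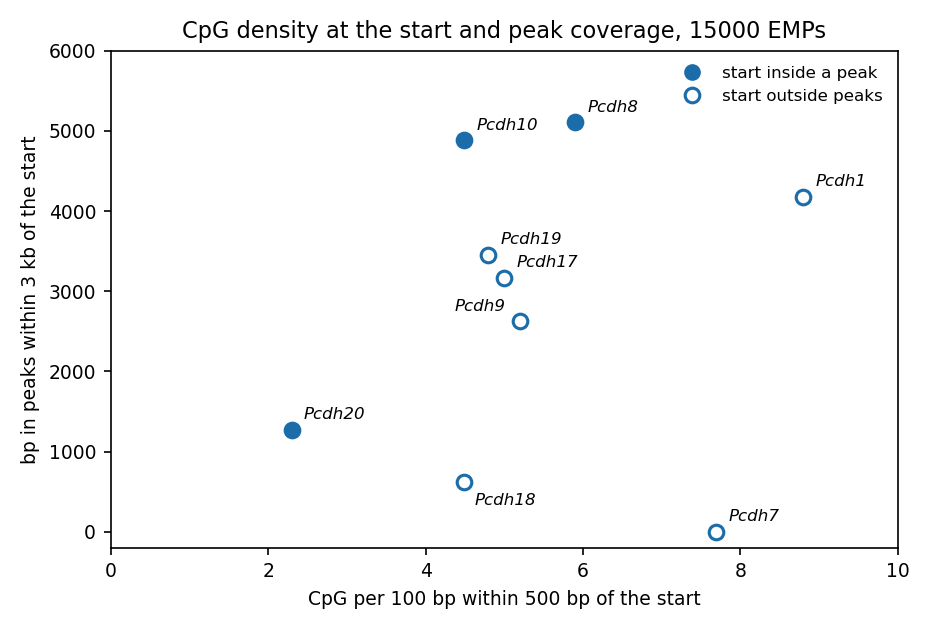
Base pairs in peaks from 15000 EMPs within 3 kb of the start (vertical axis, bp) against CpG per 100 bp within 500 bp of the start (horizontal axis), 1 point per gene, filled where the start lay in a peak. Pcdh7 sits at 7.69 CpG per 100 bp with 0 bp covered, and Pcdh10 and Pcdh18 share a density of 4.50 at 4884 and 624 bp.

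A pair of gene-poor stretches hold 6 of the 9 genes, and there the members held nearly all of the peaks. These stretches were chosen after the values were seen. A member stands at each end, so the peaks of these members were included by construction. From Pcdh8 to Pcdh9 on chromosome 14, with 10 kb beyond each, lie 14.1 Mb with 7 protein-coding genes, 4 of them members (Pcdh8, Pcdh17, Pcdh20 and Pcdh9). All 10 peaks from 500 EMPs and 11 of the 13 from 15000 EMPs in this stretch belonged to the members, whose windows make up 7.52% of its length. From Pcdh10 to Pcdh18 on chromosome 3 lie 4.40 Mb with 3 protein-coding genes, the third being Pabpc4l. The single peak from 500 EMPs and 3 of 4 peaks from 15000 EMPs there belonged to the members, whose windows make up 2.53%. Peaks were sparse in both stretches, with 0.707 and 0.919 per Mb on chromosome 14 in the 500- and 15000-EMP lists and 0.227 and 0.909 on chromosome 3, compared with 3.75 and 5.60 over the genome. Coding genes were sparse as well, at 0.495 and 0.682 per Mb against 8.05.

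The authors' annotated tables name a member in 16 rows for 500 EMPs and 19 rows for 15000 EMPs. They name 6 and 8 members, the same numbers as by position, and no row naming a member lies outside the windows used here. For 1 and 3 peaks found by position no member is named, because the tables pair them with Gm9748 at Pcdh8 or 2610316D01Rik at Pcdh10. By the distance column of the tables, 4 and 8 members had a peak within 3 kb.

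Related cadherin genes were counted in the same way to place the group, beside 9.92% of all protein-coding genes from 500 EMPs and 17% from 15000 EMPs. Further non-clustered protocadherins (Pcdh11x, Pcdh12 and Pcdh15) had a peak within 3 kb at 2 of 3 genes from 500 EMPs, Pcdh12 and Pcdh15, and at all 3 from 15000 EMPs. The giant Fat, Dachsous and Celsr cadherins, which act in planar cell polarity, had one at 6 and 8 of 9 genes, the exception in the longer list being Fat2. Of the type I classical cadherins, 4 of 5 had a peak in both lists, and Cdh15, the cadherin of muscle precursors, had none. Of the type II cadherins 3 of 13 (Cdh6, Cdh11 and Cdh22) and 6 of 13 had a peak, the further genes being Cdh7, Cdh8 and Cdh20, and Cdh5, the cadherin of endothelium, had none. Of the 56 clustered protocadherins, 8 (14.3%) and 15 (26.8%) had one. Genes for partners of the delta protocadherin tail, the WAVE complex and protein phosphatase 1, had a peak at 0 of 12 and 2 of 12 genes (16.7%), Nckap1 and Wasf3. These counts are near the shares over all genes, with an interval that reaches 24.2% for 0 of 12. Intervals for lists of this size are wide and those of the delta protocadherins overlap all of the cadherin lists but the clustered protocadherins from 15000 EMPs, whose interval runs from 17.0 to 39.6%. No test of a difference between lists was made.

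**Figure D5:**
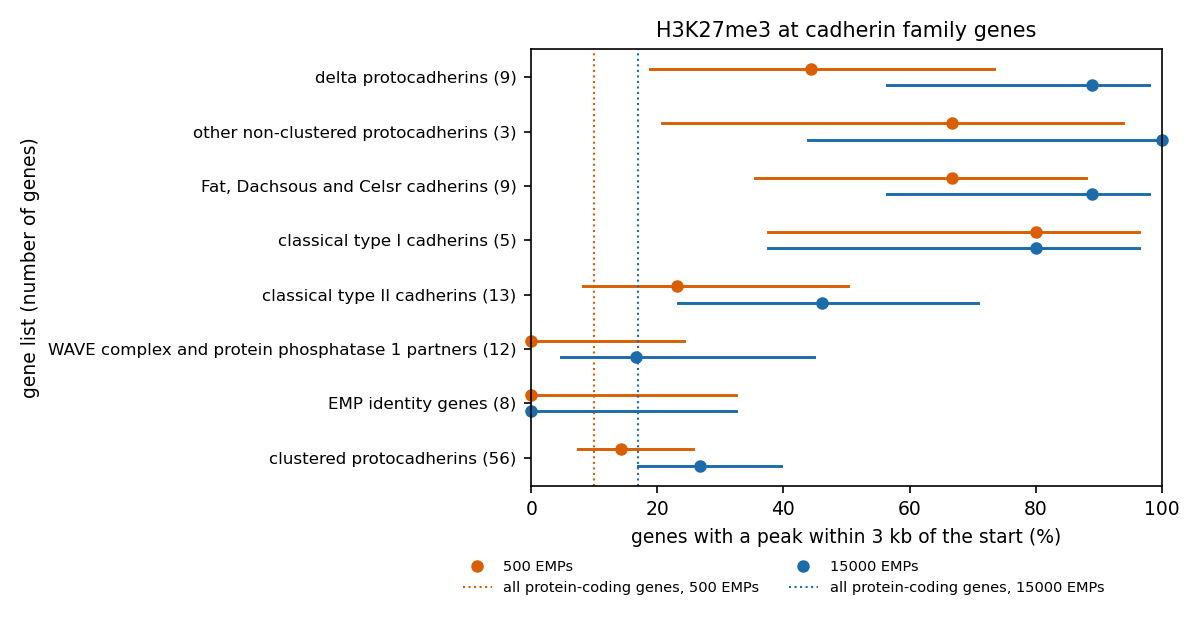
Percent of genes with a peak within 3 kb of the start (horizontal axis) in each gene list, with 95% Wilson intervals as lines and the share of all protein-coding genes as dotted lines. The delta protocadherins stand at 44.4% and 88.9%, and the EMP identity genes at 0% in both lists.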

How the data were processed

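CUT&RUN for H3K27me3 was done on 500 and 15000 EMPs, with 1 library each and an IgG control beside each. The authors aligned reads to mm10 with Bowtie2 (2.2.1), called broad peaks with MACS2 (2.1.2) and annotated them with ChIPpeakAnno, and the labels also name SAMtools (1.9) and deepTools (3.5.1). The deposited lists hold the chromosome, start and end of each peak, with no count or score, and the annotated tables add a gene and a distance in bp. The p-value settings are those of the methods (0.01 for 500 EMPs and 0.05 for 15000 EMPs). A command listing of the study puts the opposite cell number beside each setting, and the labels were followed. The IgG libraries served as the caller's control and entered no comparison here.

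Peak ends were read from the lists, since the annotated tables give each end 1 bp too high, and coordinates are 1-based. Genes came from GENCODE vM21 (GRCm38) and promoters from RefSeq (GRCm38.p6), in which 9 of 9 and 8 of 8 symbols sought were matched. The 8 leave out Pcdh1. A start is the outermost annotated base of a gene. Overlap meant at least 1 shared bp. Scripts ran in Python (3.11.15) and were tested on simulated peaks. No test was possible. Where a background is given, it is the same measure over all protein-coding genes or over all peaks of the list. The members and the gene lists were chosen with earlier results of these data known.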

Additional observations from a re-analysis of the deposited data

How the results depend on the processing

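Of 50 alternative values for 14 results, 37 stayed within 1.5 times the value given above (for the share of peaks with a counterpart, within its Wilson interval) and 13 did not. The 15000-EMP count of 8 genes with a peak within 3 kb held under each of the 6 alternatives, including limits of 1 and 5 kb. Dropping the shortest peaks, widening the limit to 5 kb and counting any transcript start could not have lowered this count. Keeping only peaks of at least 500 bp left 2 genes (Pcdh1 and Pcdh8) with a peak within 3 kb from 500 EMPs, 0 with a covered start and 6 peaks in all. The shares over all protein-coding genes and all peaks were not computed with this filter. Counting any transcript start raised the genes with a covered start to 4 from 500 EMPs and 7 from 15000 EMPs. Joining peaks within 1 kb left 9 and 14 peaks in the 500- and 15000-EMP lists, and joining within 3 kb left 9 and 9. The gene body alone held 5140 bp of the length covered from 500 EMPs. The first exon of the principal transcript was covered to 6.42% in that list. Of the peaks from 500 EMPs, 5.88% had a counterpart when 50% of both peaks had to overlap, and 100% within the gene body alone. The remaining alternatives moved no other value beyond these bounds. Windows of 250 and 1000 bp on each side, chosen after the data were seen, left 7 members with a CpG-rich start, although Pcdh18 took the place of Pcdh19 among those without one in the wider window. The share of all protein-coding genes with such a start was 47.6% with 250 bp and 29.8% with 1000 bp. No paired analysis was possible because each group had 1 library. The lists carry no read counts, the library from 500 EMPs was the shallower by the study's notes, and a gene without a peak may still carry the mark below what was called.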
